A study of Oryza sativa with 20 samples.

Results

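The 100 rice genes described here are those whose transcript level was highest, by the widest margin, in the lamina joint at its earliest sampled stage. The lamina joint (LJ) links the leaf blade to the sheath and bends to tilt the blade. For each of 37829 rice gene IDs, the mean of log2(FPKM + 1) in the LJ at stage 1 (S1) was set against the highest mean of the other 9 groups, and the 100 genes with the largest difference, the score, were kept. FPKM are sequenced fragments corrected for the length of the transcript and the number of fragments mapped in the library. The score compares the LJ at S1 with everything else, so those differences chose the genes and are given below as a description, without a test.

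The study compared the LJ with the blade in seedlings of rice (Oryza sativa), in the first leaf that forms completely, at 5 stages, S1 to S5, that run from the forming organ to the leaf angle being set. Every group was untreated: seedlings were raised in water in well plates under a long light period, and pieces of LJ or of blade were cut, frozen and extracted separately. The labels give no cultivar, no genotype and no plant numbers per library. The 2 tissues and 5 stages make 10 groups of 2 libraries, 20 libraries in all.

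In grasses the blade and sheath arise from 1 primordium on the flank of the shoot apex, and the ligule and lamina joint form at the boundary between them. Class I KNOX genes encode homeobox transcription factors that keep cells of the shoot meristem undifferentiated, and they are largely silent in most of the developing leaf blade. Cells of a young leaf first divide and later stop dividing and enlarge, earlier at the tip than at the base.

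FPKM do not hold read numbers, so the depth of each library is unknown; FPKM totals over rice gene IDs ran from 860684 to 1079325. LG1, the SBP-box factor needed for ligule and lamina joint, read 5.45 and 8.49 FPKM in the LJ libraries at S1 and 2.75 and 2.98 FPKM in blade at S1. Lists of other markers come from background knowledge, and the annotation table used here bears out the symbol of 3 of 5 root IDs, 2 of 3 seed IDs and 0 of 3 Rubisco IDs. The root IDs summed to 4.88 and 3.45 FPKM and the seed IDs to 1.12 and 2.27 FPKM in the LJ at S1, with the lists' values in blade at S1 being 2.91 and 3.20 FPKM and 2.42 and 5.42 FPKM. Of the root list no ID, and of the seed list 1 ID, was at 0 in both LJ libraries at S1. The 3 IDs listed for the small subunit of Rubisco, the carbon-fixing enzyme of green leaf cells, summed to 44.9 FPKM in LJ S1 replicate 1, 133 FPKM in replicate 2, and 946 and 1325 FPKM in blade S1. These are bulk samples, in which fewer cells of a type and less RNA per cell cannot be told apart.

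Scores ran from 2.45 for RFL at rank 1 to 1.19 at rank 100, with a median of 1.44. The boundary of the list is shallow: ranks 96 to 100 (OS03G0710100, OS02G0669700, MT2b, OS01G0896350 and OS03G0322700) scored 1.20 to 1.19, and the next 5 genes below it (OS12G0163250, OS03G0328600, OS01G0725400, OS07G0143500 and OS01G0198000) scored 1.19 to 1.18. The next highest group was LJ S2 for 71 genes, blade S1 for 18, LJ S5 for 5, LJ S3 for 4, LJ S4 for 1 and blade S2 for 1. The label "specific to stage 1 joint" therefore overstates the pattern: 74 of the 100 genes still stood at 1 FPKM or more in both LJ libraries at S2, 61 did so in both blade libraries at S1, and 8 did so in all 20 libraries. At the other end, 13 genes were under 1 FPKM in all 18 libraries outside LJ S1. The 100 genes are called the S1-peak genes below.

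In the LJ at S1 the group means of the S1-peak genes ran from 2.26 to 1587 FPKM with a median of 15.5 FPKM. Of them, 8 were at 100 FPKM or more, 57 between 10 and 100 FPKM and 35 under 10 FPKM. The median over the 100 genes went from 15.5 FPKM at S1 to 4.98, 1.25, 0.214 and 0.104 FPKM at S2 to S5 in LJ, and ran at 3.30, 0.777, 0.248, 0.0525 and 0.0335 FPKM at S1 to S5 in blade. Blade thus lay below LJ at every stage, and for S1 to S4 the blade median was nearer to the LJ median of the following stage than to that of its own stage. The number of genes under 1 FPKM in both libraries grew from 0 at S1 to 14, 37, 76 and 81 at S2 to S5 in LJ, and from 27 to 51, 68, 87 and 86 in blade. The lower LJ S1 library stood above all 18 other libraries for 98 of the 100 genes, all but OS10G0187410 and OS03G0680700, where 10.9% of all rice gene IDs did so; the rule used these values and nothing is read from the share.

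**Figure D1:**
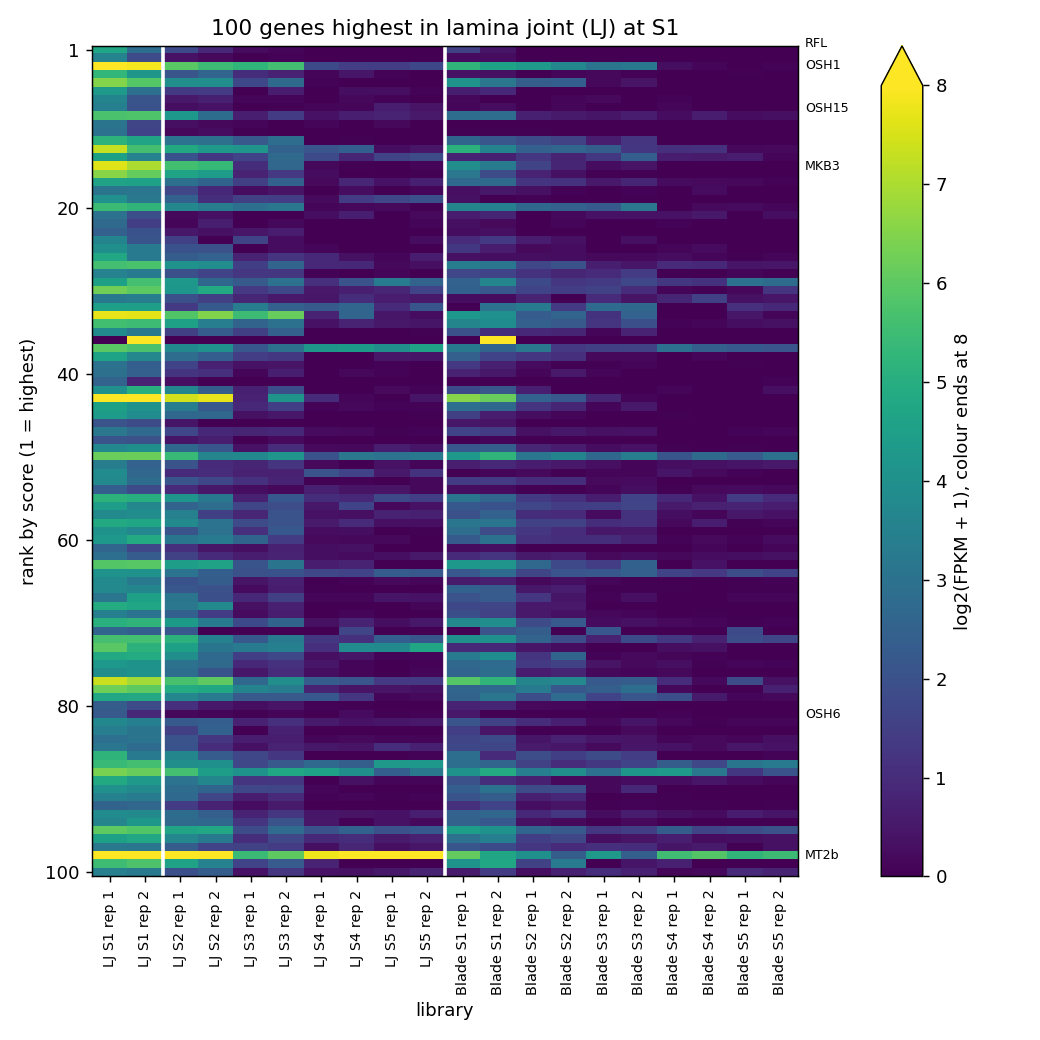
Each row is 1 of the 100 genes in order of score, each column 1 of 20 libraries, and colour gives log2(FPKM + 1), with values over 8 in the same colour. LJ S1 is brightest by choice of the genes; LJ S2 and blade S1 come next, and most rows are dark at S4 and S5 in both tissues.

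Only 6 of the 100 genes could be given a name, since the files hold IDs alone; the other 94 are given by ID with no role. Among these were 4 regulators of meristems. RFL, the rice orthologue of LEAFY, a transcription factor of panicle and tiller branching, had the largest score. It read 24.9 FPKM in LJ S1 replicate 1 and 6.45 FPKM in replicate 2 (15.7 ± 13.1, SD, n = 2). The next values were 2.45 and 0.887 FPKM in LJ S2 and 1.97 and 0.382 FPKM in blade S1; it was at 0 in all LJ libraries of S4 and S5 and all blade libraries after S1. LJ S1 lay above all other libraries, and replicate 1 lay above replicate 2 in each of the 3 groups named.

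OSH1, the KNOX gene that marks and maintains the shoot apical meristem, was at 11.0 and 2.66 FPKM in LJ S1. In LJ S2 it stood at 0.297 and 0.145 FPKM, and in blade S1 at 0.169 and 0.208 FPKM. OSH15, a KNOX gene needed for internode elongation, was at 9.92 and 3.02 FPKM in LJ S1, at 0.233 and 0.299 FPKM in LJ S2, and at 0.561 and 0.333 FPKM in LJ S5. Both genes were at or above 1 FPKM in the LJ S1 libraries alone among the 20.

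OSH6, another class I KNOX gene, was at 3.68 and 0.847 FPKM in LJ S1 and at 0.452 and 0.0284 FPKM in blade S1. It reached 1 FPKM in only 1 library, LJ S1 replicate 1, and so did not pass the filter for testing (1 FPKM in at least 2 libraries). The lower LJ S1 library, at 0.847 FPKM, lay above the highest other library, at 0.452 FPKM. Both values are under 1 FPKM and the rule used them, so nothing is read from this. OSH71, also of class I, was not an S1-peak gene: it read 5.80 and 1.65 FPKM in LJ S1 but 5.23 and 3.21 FPKM in LJ S5, the group with the higher mean of log2 values. OSH43 stayed under 1 FPKM in all 20 libraries, and OSH10 was at 0 in both LJ S1 libraries. Summed over the 6 KNOX genes, the level in LJ S1 was 30.4 FPKM in replicate 1 and 8.23 FPKM in replicate 2.

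MKB3, a GRF-interacting co-activator that promotes cell division in leaves, was at 193 and 130 FPKM in LJ S1. Its level stepped down in the LJ, to 47.3 and 39.9 FPKM at S2, 1.09 and 5.22 FPKM at S3 and under 0.2 FPKM at S4 and S5. In blade it started at 14.3 and 9.06 FPKM at S1 and read 2.15 and 0.771 FPKM at S2. At each of S1 and S2 every LJ library was above every blade library.

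MT2b, a metallothionein, that is a small cysteine-rich protein that binds metal ions, had the highest mean over both LJ S1 libraries, 1587 FPKM, although OS10G0187410 exceeded it in replicate 2. It read 2370 and 805 FPKM in LJ S1, 773 and 468 FPKM in S2, 43.1 and 64.1 FPKM in S3, 222 and 478 FPKM in S4 and 338 and 369 FPKM in S5. Blade libraries ran from 4.09 FPKM (S2 replicate 2) to 66.9 FPKM (S1 replicate 1). The level in the LJ was therefore lowest at S3 and higher again at S4 and S5, and no LJ library overlapped with a blade library of its own stage. The names MKB3 and MT2b were looked up after their values were seen.

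**Figure D2:**
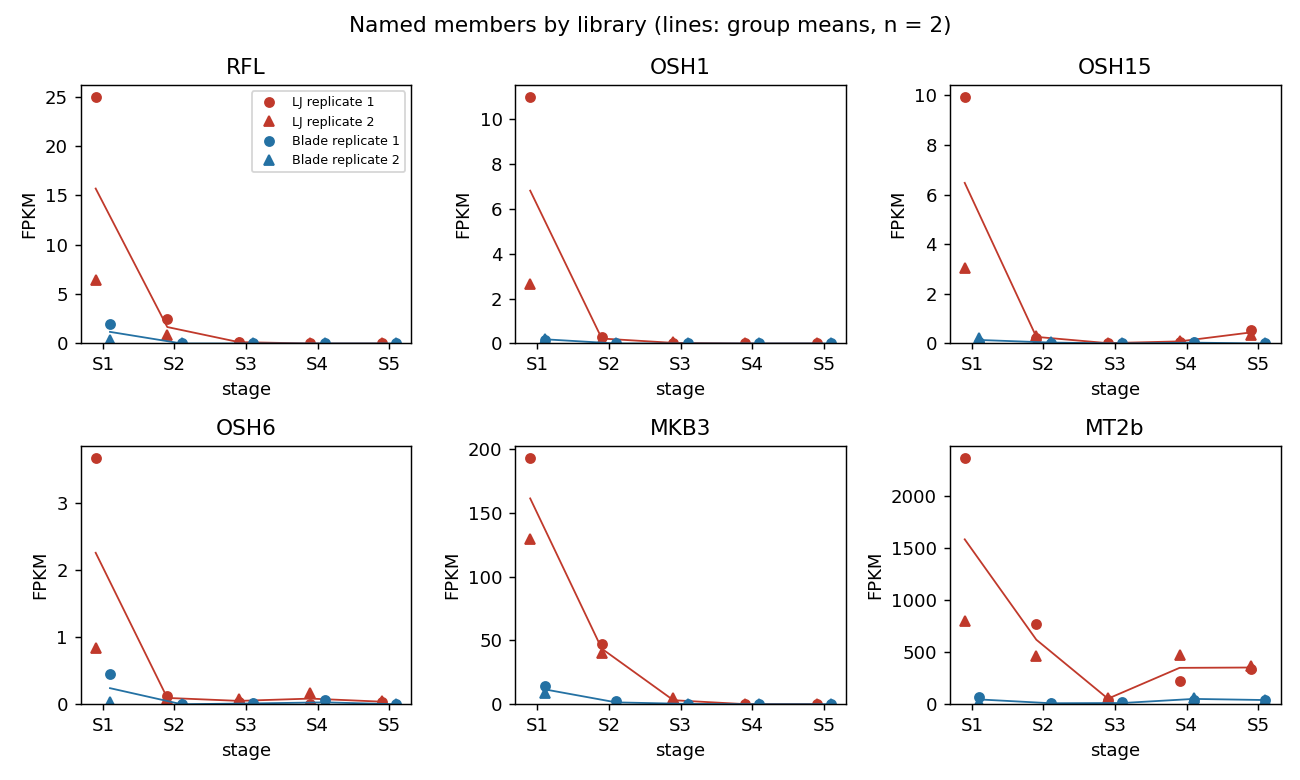
FPKM of the 6 named S1-peak genes by stage, with LJ in red and blade in blue; circles are replicate 1, triangles replicate 2 and lines the means of 2 libraries. RFL, OSH1, OSH15 and OSH6 are near 0 after S2 and far apart between the LJ S1 libraries, MKB3 steps down over S2 and S3, and MT2b rises again in LJ after S3.

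Among the genes without a name, OS12G0114500 had the highest score, with 327 and 237 FPKM in LJ S1, 61.1 and 43.3 FPKM in LJ S2 and 36.3 and 24.2 FPKM in blade S1. OS10G0403200, at rank 4, was at 38.4 and 17.7 FPKM in LJ S1 but no higher than 0.297 FPKM in any blade library. It was 1 of 25 genes that stayed under 1 FPKM in all 10 blade libraries. OS05G0223300 and OS03G0622100, at ranks 10 and 11, belonged to the same 25, with 7.36 and 2.16 FPKM and with 7.06 and 2.06 FPKM in LJ S1; outside it they did not exceed 0.245 and 0.196 FPKM.

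Besides those already given, the first 20 ranks held OS09G0395600, OS04G0516200, OS06G0650300, OS03G0674700, OS06G0256900, OS01G0705200, OS04G0225067, OS10G0347000, OS09G0481100, OS03G0666300, OS08G0199400 and OS05G0122650. OS01G0327500 was abundant in both S1 groups and at S2, with 520 and 558 FPKM in LJ S1, 173 and 208 FPKM in LJ S2, and 92.9 and 69.1 FPKM in blade S1. By S4 it was under 1 FPKM in both tissues. OS08G0199525 instead kept to the LJ: it was at 61.6 and 34.3 FPKM at S1 and still at 12.9 and 24.9 FPKM at S5, while no blade library exceeded 0.864 FPKM. OS12G0567300 was at 42.0 and 48.3 FPKM in LJ S1, was at 2.25 and 3.66 FPKM at S3 and stood at 18.6 and 18.4 FPKM at S5. Its blade values at S5, 7.57 and 8.60 FPKM, lay above those of blade S1, 6.41 and 5.11 FPKM.

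OS10G0187410 stands apart. It was listed at 0 in LJ S1 replicate 1 and at 2554 FPKM in replicate 2, at 0 and 300 FPKM in blade S1, and at 0 in the other 16 libraries. It entered the list through a single LJ library, and an exact 0 in a table without counts can be a failed estimate. It was the only one of the 100 genes listed at 0 in an LJ S1 library. The summed level of the 100 genes, 6106 FPKM in replicate 1 and 6469 FPKM in replicate 2, contains these 2554 FPKM in replicate 2.

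The 100 genes lay on all 12 chromosomes, with 3 genes on chromosome 11 and 17 each on chromosomes 1 and 3. These chromosomes held 5.22%, 14.3% and 13.4% of all tested genes. Genes of neighbouring ID (within 3 steps in ID order) formed 8 clusters that hold 17 of the 100, 7 of 2 genes and 1 of 3, so the list covers 91 separate neighbourhoods. In the cluster of 3, OS07G0124650 read 9.83 and 7.45 FPKM, OS07G0124700 20.3 and 13.8 FPKM and OS07G0124725 29.3 and 25.3 FPKM in LJ S1. The sources used here do not say whether libraries kept strand, so reads of overlapping or antisense neighbours cannot be told apart, and members of a cluster are not independent of each other.

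The comparisons that follow do not contain LJ S1. They are not wholly apart from the choice of genes, since the score also used the highest of the other 9 groups, which was LJ S2 or blade S1 for most genes. The tests were made with limma on log2(FPKM + 1) over 26403 genes that passed the filter, with calls made where the p adjusted by Benjamini-Hochberg over all of them was under 0.05. Of the 100 genes 98 passed the filter, all but OSH6 and OS01G0890500 (4.83 and 0.733 FPKM in LJ S1). Of the 98, 15 passed only through LJ S1, the group where they are high, so each count below is also given for the 77 genes at 1 FPKM or more in both libraries of some other group. A log2(FPKM + 1) difference is smaller than the true log2 fold change where FPKM is low. The labels do not say that replicates are separate plants or harvests, so p-values measure the spread between these libraries only.

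The S1-peak genes stayed higher in the LJ than in the blade after S1. Over the mean of S2 to S5, 73 of the 100 genes were called higher in LJ and 0 lower, where 26.7% of all tested genes were called higher and 10.9% lower; of the 98 tested, 81 reached an unadjusted p under 0.05 in either direction. Their median difference was 0.67 log2 units against 0.17 over all tested genes. Of the 77 genes present in another group, 66 were called higher and 0 lower. By stage, the LJ mean exceeded the blade mean for 97, 93, 77 and 65 of the 100 genes at S2, S3, S4 and S5. The matching shares of all tested genes were not computed, so nothing is read from these counts. At S5, 81 of the 100 genes in LJ and 86 in blade were under 1 FPKM in both libraries. MT2b had the largest difference, 3.54 ± 0.35 (SE, limma adjusted p = 1.0e-05), followed by OS08G0199525 with 3.31 ± 0.33 (limma adjusted p = 9.6e-06) and OS06G0168700 with 2.36 ± 0.25 (limma adjusted p = 1.6e-05). MKB3 was higher by 1.48 ± 0.21 (limma adjusted p = 0.00013). RFL did not pass, with 0.38 ± 0.22 (limma adjusted p = 0.19), but passed when same-numbered LJ and blade libraries of a stage were taken as pairs (limma adjusted p = 0.012). OSH1 (0.08 ± 0.17) and OSH15 (0.23 ± 0.15) did not pass.

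The LJ sum of the 10 cell cycle genes listed (PCNA, 2 B-type cyclins, 2 B-type cyclin-dependent kinases and 5 MCM helicase subunits) ran beside this pattern: 1068 and 1001 FPKM at S1, 689 and 513 at S2, 107 and 166 at S3, 17.1 and 15.7 at S5. In blade the sum was 586 and 520 FPKM at S1, 165 and 203 at S2, and 9.01 and 14.5 at S3. No cell cycle gene was among the 100, yet 6 of the 10 were in the first 300 ranks, and all 10 were called higher in LJ than in blade over S2 to S5. The part of dividing cells in the levels of the S1-peak genes was not tested.

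Within the LJ, the S1-peak genes were still elevated at the second stage. At S2, 79 were called higher than over the mean of S3 to S5 and 0 lower, where 26.4% of all tested genes were called higher and 33.5% lower. Their median difference was 1.75 log2 units, against −0.16 over all tested genes. Of the 77 genes, 71 were called higher and 0 lower. For the 71 members with LJ S2 as the next highest group, LJ S2 was the group the score subtracted. OS01G0327500 led with 6.48 ± 0.57 (SE, limma adjusted p = 5.2e-07), ahead of MKB3 with 4.79 ± 0.34 (limma adjusted p = 8.0e-08) and OS10G0347000 with 4.11 ± 0.28 (limma adjusted p = 6.1e-08). OS10G0347000 stood at 23.3 and 20.6 FPKM at S2 and at 0.739 and 1.52 FPKM at S3. RFL was higher at S2 by 1.29 ± 0.36 (limma adjusted p = 0.0074) and MT2b by 1.72 ± 0.58 (limma adjusted p = 0.019). Both calls were lost without LJ S2 replicate 1, RFL at 0.85 (limma adjusted p = 0.15) and MT2b at 1.35 (limma adjusted p = 0.17). OSH1 (0.27 ± 0.28) and OSH15 (0.12 ± 0.24) were not called. All 10 cell cycle genes were called higher at S2 too.

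The same genes were early in the blade. In blade S1, 72 of the 100 were called higher than over the mean of blade S2 to S5 and 0 lower, where 33.5% of all tested genes were called higher and 19.9% lower. The median difference was 1.28 log2 units against 0.16 over all tested genes. Of the 100, 90 had their highest blade mean at S1, a count whose share over all tested genes was not computed. Of the 77 genes, 65 were called higher and 0 lower; for 18 of the 100, blade S1 was the group the score subtracted. The largest differences were those of OS01G0327500 with 5.63 ± 0.56 (SE, limma adjusted p = 2.1e-06), OS01G0896350 with 3.68 ± 0.40 (limma adjusted p = 5.1e-06) and OS03G0669100 with 3.65 ± 0.37 (limma adjusted p = 2.9e-06). OS03G0669100 read 58.5 and 36.6 FPKM in blade S1, 11.5 and 12.5 FPKM in blade S2 and 164 and 119 FPKM in LJ S1. MKB3 was higher in blade S1 by 3.24 ± 0.33 (limma adjusted p = 2.6e-06).

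RFL was higher in blade S1 by 1.02 ± 0.35 (limma adjusted p = 0.025), but not without blade S1 replicate 1 (0.47, limma adjusted p = 0.42) and not after quantile normalization (limma adjusted p = 0.053). MT2b did not pass with 1.01 ± 0.56 (limma adjusted p = 0.14), and passed with the pairs as blocks (limma adjusted p = 0.032). All 10 cell cycle genes were called higher in blade S1.

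Few of the S1-peak genes came back at the last LJ stage. Against the mean of LJ S3 and S4, LJ S5 was called higher for 1 gene and lower for 29, where 25.5% of all tested genes were called higher and 20.6% lower. The median was −0.26 log2 units against 0.11 over all tested genes. All 30 called genes were among the 77. The 30 calls dropped to 15 without LJ S5 replicate 1 and to 18 without LJ S5 replicate 2. The gene called higher was OS12G0567300, by 2.02 ± 0.24 (SE, limma adjusted p = 1.4e-05). The mean includes S3, so a change made between S3 and S4 also counts here. OS06G0168700 was lower by 3.39 ± 0.43 (limma adjusted p = 2.4e-05) and OS01G0705200 by 2.42 ± 0.53 (limma adjusted p = 0.002). OS12G0114500 was lower by 1.94 ± 0.26 (limma adjusted p = 3.0e-05). Its LJ values were 36.7 and 47.8 FPKM at S3, 2.51 and 1.74 FPKM at S4 and 1.72 and 2.32 FPKM at S5. OS01G0705200 instead went from 3.31 and 4.29 FPKM at S4 to 0.192 and 0.412 FPKM at S5. MKB3 was lower by 0.91 ± 0.36 (limma adjusted p = 0.049), a call lost in 21 of 28 refits. It read 0.129 and 0.04 FPKM at S4 and 0 and 0.1 FPKM at S5. MT2b had 1.42 ± 0.61 (limma adjusted p = 0.071, and 0.011 with pairs as blocks). MT2b read 222 and 478 FPKM at S4 and 338 and 369 FPKM at S5. Of the KNOX genes that are not S1-peak genes, OSH71 rose at S5 by 1.96 ± 0.28 (limma adjusted p = 6.6e-05). Of the cell cycle genes, 8 of 10 were called lower. The same difference, of S5 from the mean of S3 and S4, was also compared between LJ and blade. It was called for 1 of the 100 genes, OS06G0168700, with the smaller change in blade. Of all tested genes 0.670% were called in that direction and 1.79% in the other. In blade OS06G0168700 read 1.27 and 4.66 FPKM at S3 and 0 in both S4 libraries, so it could not fall as far.

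**Figure D3:**
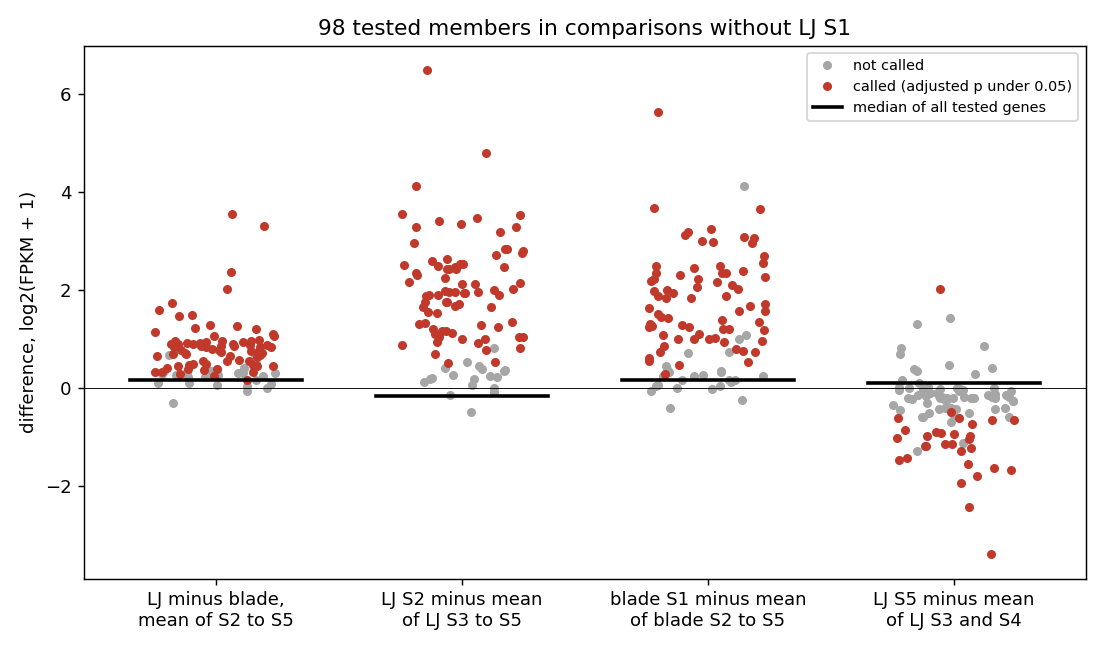
Differences in log2(FPKM + 1) for the 98 tested S1-peak genes in 4 comparisons that leave LJ S1 out; each point is a gene, red where called, and black bars are medians of all 26403 tested genes. In the first 3 comparisons the red points lie above 0 (73, 79 and 72 genes), and in the last 29 lie below and 1 above.

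Of 6 KNOX genes 3, and of 14 IDs on a list of axillary and shoot meristem regulators 2, were among the 100. The latter were RFL and OS06G0344900, which is left without a name because the annotation table used here lacks the listed symbol. None of 9 YABBY and ligule IDs, of 8 leaf polarity IDs, of 3 SPL genes or of 19 MADS-box genes was among them. Some of the YABBY genes and DL, a family of transcription factors that shape leaf lamina and midrib, were nevertheless higher in LJ S1 than in blade S1. In LJ S1, YAB5 read 127 and 125 FPKM, YAB4 23.7 and 30.3 FPKM, YAB3 22.0 and 20.5 FPKM, and DL 23.1 and 17.7 FPKM. Their levels carried on into LJ S2, where YAB5 read 75.5 and 125 FPKM, while YAB3 ranked 248 and DL 663. YAB1 went the other way, with 25.6 and 27.9 FPKM in LJ S1 but 33.7 and 41.2 FPKM in blade S1. YAB6 overlapped between the tissues at S1, with 8.82 and 10.9 FPKM in LJ S1 and 6.82 and 16.7 FPKM in blade S1. It was higher later in the LJ, at 41.8 and 31.3 FPKM in LJ S4.

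The 2 LJ S1 libraries did not weigh equally on the list. Replicate 1 was higher for 75 of the 100 genes, against 39.1% of the 20565 rice genes with a mean of at least 1 FPKM in LJ S1. A gap of at least 2-fold in favour of replicate 1 was found for 22 of the 100 genes, against 2.83% of those 20565, and in favour of replicate 2 for 4, against 2.77%. The 22 included 5 of the 6 named genes, all but MKB3, and 13 of them were in the first 25 ranks. The widest gap was that of OS01G0890500, 6.59-fold, followed by OSH6 with 4.35-fold, OS03G0680700 with 4.17-fold (35.8 and 8.59 FPKM), OSH1 with 4.13-fold and RFL with 3.87-fold. The 4 genes higher in replicate 2 were OS10G0187410, OS02G0606600 (7.89 and 22.6 FPKM), its neighbour OS02G0606400 (15.0 and 31.9 FPKM) and OS01G0259933 (22.2 and 48.1 FPKM).

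**Figure D4:**
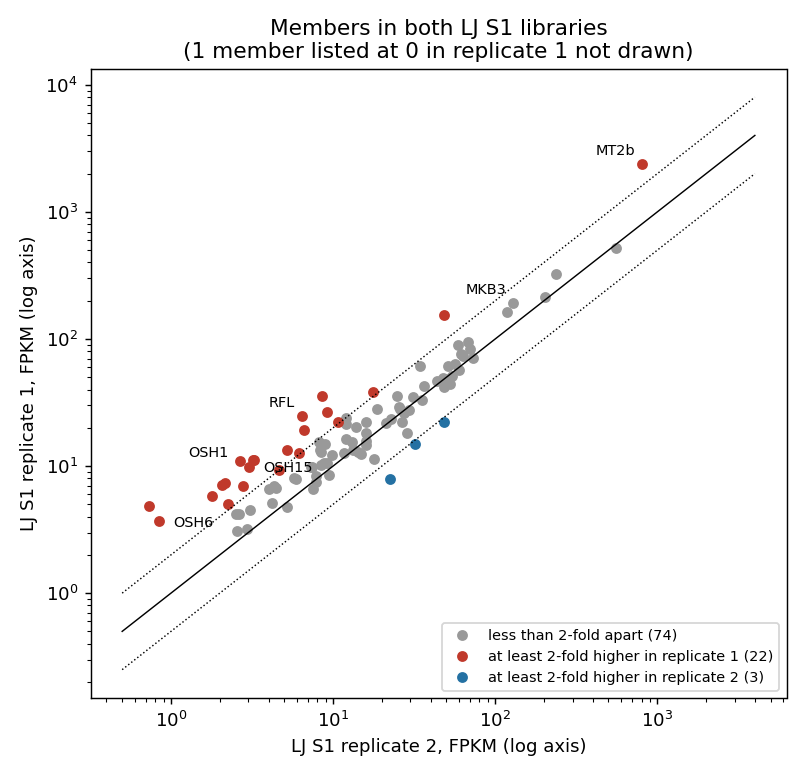
LJ S1 replicate 1 against replicate 2 in FPKM on log axes for 99 S1-peak genes; the solid line marks equal values and the dotted lines a 2-fold gap. In red are 22 genes at least 2-fold higher in replicate 1, among them RFL, OSH1, OSH15, OSH6 and MT2b, in blue 3 at least 2-fold higher in replicate 2; OS10G0187410, at 0 in replicate 1, is not drawn.

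These 22 genes, a set chosen after the values were seen, were more nearly restricted to LJ S1 than the 74 genes with less than a 2-fold gap. The score measures the lead of LJ S1, and 13 of the 22 were in the first 25 ranks, so the choice of genes enters this difference. The median group mean of the 22 was 7.20 FPKM in LJ S1, 0.971 FPKM in LJ S2 and 0.278 FPKM in blade S1, compared with 17.1, 5.75 and 4.21 FPKM for the 74. Counts of genes under 1 FPKM also depend on this lower level. Of the 22, 9 were under 1 FPKM in all 8 later LJ libraries, and of the 74, 4. Of the 25 genes under 1 FPKM in all blade libraries, 15 were among the 22. In blade S1, replicate 1 was the higher library for 11 of the 22 and for 42 of the 74. The blade S1 mean was under 1 FPKM for 16 of the 22 and 12 of the 74, where the higher library says little. Over genes with a mean of at least 1 FPKM in LJ S1, the replicate gap in LJ S1 correlated with that in blade S1 at 0.536 (Pearson). Over 99 S1-peak genes, without OS10G0187410, the correlation was 0.386. Among the marker lists, replicate 1 had the lower sum for Rubisco and seed IDs and the higher sum for root IDs, while the YABBY and ligule list summed to 241 and 247 FPKM in replicates 1 and 2. The list of axillary and shoot meristem regulators, which holds RFL and OS06G0344900 of the 22, summed to 104 FPKM in replicate 1 and 60.2 FPKM in replicate 2. Whether the pieces cut for the LJ S1 libraries differed in makeup was not tested.

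The same score taken from 1 replicate could be read in the other, which had no part in that choice. Of 100 genes chosen from the replicate 1 libraries alone, 91 had LJ S1 as the highest of the 10 replicate 2 libraries, against 22.1% of tested genes, and 48 led by at least 1 log2 unit, against 1.55%. Their median lead dropped from 1.58 to 0.96 log2 units. Of 100 chosen from the replicate 2 libraries alone, 93 had LJ S1 highest among the replicate 1 libraries, against 22.0%, and 37 led by at least 1 log2 unit, against 0.678%; the median lead dropped from 1.51 to 0.66. For most genes of both choices, neither of which is the list of 100, LJ S1 was thus also highest in the other replicate, with a smaller lead. The shares of tested genes were not matched for level. Membership carried over less: 28 genes were in both choices, and the list of 100 shared 65 genes with the first and 47 with the second.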

How the data were processed

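RNA-seq values of 20 libraries were used, 10 groups of 2, with groups and replicate numbers taken from the labels. The deposited values are FPKM, made by the authors. Libraries came from an NEBNext Ultra kit, per the labels' protocols. The tools named by the submitters' processing notes are Cufflinks 2.2.1, TopHat2 2.1.1, Trimmomatic 0.36 and CASAVA 1.8, with build IRGSP-1.0. Each file lists 82632 features, of which 44803 without a rice gene ID were left out. No whole reads were recovered from the FPKM, so read depth is unknown and counting intervals could not be given.

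The members, gene lists and tests were chosen with earlier results of these data known. Named genes are members with a symbol, the 20 highest scores, the extreme called members of each comparison, the widest replicate gaps, the ranks beside the list's end, and the KNOX, YABBY and ligule lists. Of 97 pairs of symbol and ID from background knowledge, 65 are named: in RefSeq assembly ASM3414082v1 the symbol lay on the ID's chromosome and within 2% of its place in gene order. Another 28 symbols were not found there, 2 pairs lay on another chromosome, 1 differed in position and 1 ID was not matched; these last 4 were left out of all lists, while the 28 stay in them unnamed.

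Genes at 1 FPKM or more in 2 libraries were fitted with limma 3.58.1 in R 4.3.3 (package data.table, version 1.17.8) on log2(FPKM + 1), with a trend of variance on mean level. All 10 groups entered 1 fit with 10 residual degrees of freedom, and p-values were adjusted by Benjamini-Hochberg over 26403 genes; the fit was tested on simulated data. Errors of levels are SD over 2 libraries, errors of log2 differences SE. The tests used no replicate block unless pairs are named. Across genes, the gap between replicates in LJ correlated with that in blade at 0.213 to 0.774 in the 5 stages. A refit therefore took same-numbered libraries of a stage as pairs. Alternatives were another pseudocount, other filters, other scalings, replicate blocks, other choices of members and each library left out.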

Additional observations from a re-analysis of the deposited data

Results flagged for a closer look

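OS06G0168700 was the only S1-peak gene called for a tissue difference in the change from the mean of S3 and S4 to S5. The test of that difference was added after the data were seen. The change from the mean of S3 and S4 to S5 was −3.39 log2 units in LJ and −0.61 in blade, a difference of −2.78 ± 0.61 (SE, limma adjusted p = 0.028), where 0.670% of all tested genes were called in this direction and 1.79% in the other. In LJ the gene read 44.0 and 69.3 FPKM at S3, 0.755 and 5.13 FPKM at S4 and 0.404 and 0.2 FPKM at S5. In blade it read 1.27 and 4.66 FPKM at S3, 0 in both S4 libraries and 0.41 and 0.0973 FPKM at S5. The blade level was thus already low at S3 and could not fall as far as that in LJ. Most of the LJ fall lay between S3 and S4.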

How the results depend on the processing

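The counts of called genes, 73, 79, 72 and 30 in the 4 comparisons (LJ minus blade over S2 to S5, LJ S2, blade S1, LJ S5), and the overlap of the list with other choices were recomputed 152 times, and 143 values stayed within 1.5 times. Choosing the members with a pseudocount of 0.1 gave 44, 51, 41 and 12 calls among the 78 of those members that were tested, against 98 here, and shared 58 of 100 genes; choosing them by the lower LJ S1 library shared 63. With each library left out, calls ran from 63 to 78, 66 to 85, 62 to 76 and 15 to 33, and the shared genes from 60 (without LJ S2 replicate 1) to 100; this takes the lone library left in a group to have the spread of other groups. Upper quartile scaling and quantile normalization moved the median of all tested genes between LJ and blade from 0.17 to 0.05 and 0.03, and lowered the share of higher calls among all called genes there from 70.9% to 57.2% and 53.9%, and in blade S1 from 62.7% to 53.9% and 50.5%. Relative to that median the members differed by 0.50, 0.59 and 0.57. With pairs of LJ and blade as a replicate block, 84, 81, 77 (76 higher, 1 lower) and 38 (4 higher, 34 lower) members were called. Calls among all tested genes rose as well. They were 37.4% higher and 17.4% lower between LJ and blade, and 31.3% higher and 39.8% lower in LJ S2. In blade S1 they were 39.5% higher and 27.0% lower, and in LJ S5 33.2% higher and 27.2% lower. Over 43 genes named by rule and 172 tests, the block lost 0 calls and gained 17, among them those of RFL and MT2b given above. Another gain was OS10G0187410 in blade S1 (limma adjusted p = 0.11 without and 1e-05 with the block). That gene was above 0 in only 1 blade library, so nothing is read from this gain. The subset of 77 members was added after seeing the data. Of 19 single-gene calls, 15 held in every refit, no refit reversed a direction, and MT2b at LJ S2 was also lost after quantile normalization (limma adjusted p = 0.068). The cause of these shifts was not tested. Library depth is unknown, so genes under 1 FPKM cannot be told from silent ones.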
